A study of Homo sapiens with 29 samples.

Results

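Integrins and laminins were taken as every gene of the count table whose symbol names an integrin alpha or beta subunit or a laminin alpha, beta or gamma chain. There were 39 such genes among 28266 in the table: 26 integrin subunits (18 alpha and 8 beta), 12 laminin chains (5 alpha, 4 beta and 3 gamma) and ITGBL1, which encodes a secreted protein with repeats like those of integrin beta subunits and is not a receptor subunit. The 3 genes ITGB3BP, ITGB1BP1 and ITGB1BP2 were left out because they encode binding proteins. The data were poly(A)-selected RNA sequencing counts from 18 libraries of IMR90 ER:RAS cells, human lung fibroblasts of an established line that carry a retroviral fusion of oncogenic RAS with an estrogen receptor domain. The group DMSO_siNT received the solvent and a non-targeting siRNA, 4OHT_siNT received 4-hydroxytamoxifen (4OHT), which activates the fusion and induces oncogene-induced senescence, with a non-targeting siRNA, and 4OHT_siSMARCA4 received 4OHT with an siRNA against SMARCA4, the ATPase subunit of SWI/SNF chromatin remodelling complexes. Each group had 6 libraries, collected on day 7, and each used an siRNA numbered 2 and an siRNA numbered 4. The ER:RAS fusion was present in all groups, transfection came 1 day before 4OHT, and the siRNA against SMARCA4 was used with 4OHT only, so its effect in growing cells was not measured here. The labels do not say whether libraries of a group came from separate cultures, so p-values cover the spread between these libraries, which may be technical.

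Integrins are receptors made of an alpha and a beta subunit that span the membrane and join the extracellular matrix to the actin cytoskeleton. Laminins are trimers of an alpha, a beta and a gamma chain, and are the main adhesive proteins of basement membranes. The alpha subunit largely sets the ligand: ITGA1, ITGA2, ITGA10 and ITGA11 bind collagens, ITGA3, ITGA6 and ITGA7 bind laminins, and ITGA5, ITGA8 and ITGAV bind proteins with an RGD motif such as fibronectin and vitronectin. Fibroblasts adhere mainly through ITGB1 and ITGAV heterodimers, and leukocytes use a separate set that pairs with ITGB2 or ITGB7.

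Total counts per library were 9657309 to 18039313. The set names in the labels end in V or VM, whose meaning is not stated. Every one of the 6 libraries of 4OHT_siNT came from a VM set. The DMSO_siNT libraries were split evenly, with 3 of each type, and the knockdown group held 3 of type V, 2 of type VM and 1 whose column matched no sample title. The name of that column ends in VM, but since no label gives its set the library is called unlabelled and entered the VM sets only in an alternative of its own. For the V libraries of the knockdown group, set type and siRNA therefore cannot be told apart, and values within VM sets are given beside the results they touch. The library DMSO_siNT 4-2V (siRNA 4, set 2V) stood apart, with the lowest total count and a level far below the rest of its group for 8 members, so results were also computed without it. SMARCA4 itself ranged from 275 to 330 CPM (counts scaled to library size, on the TMM scale) in 4OHT_siNT and from 70.4 to 141 CPM in 4OHT_siSMARCA4, a difference of −1.61 ± 0.14 (SE) on the log2 scale (edgeR quasi-likelihood test, Benjamini-Hochberg adjusted p = 1.3e-06). All 10 fibroblast markers were above 3 counts in at least 1 library of every group, with a summed level whose median was 28716 CPM in DMSO_siNT, 17421 CPM in 4OHT_siNT and 11037 CPM in 4OHT_siSMARCA4. CDH1, KRT5 and KRT14, of epithelium, ERG and EMCN, of endothelium, and CD3E and LYZ, of leukocytes, never exceeded 3 counts in any library. Other markers of these lists did. In each group 5 of 10 epithelial, 7 or 8 of 10 endothelial and 4 or 5 of 10 leukocyte markers exceeded 3 counts in some library. The highest in DMSO_siNT were KRT18 at 63.2 CPM, TEK at 5.63 CPM and CD68 at 52.8 CPM on average. In bulk RNA, fewer cells that express a gene and less RNA of it per cell cannot be told apart.

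Per kilobase of the canonical transcript, the most abundant member in 4OHT_siNT was ITGB1, the shared beta subunit of most matrix receptors, at 542 ± 62.4 CPM per kb (SD, n = 6). ITGA5, the fibronectin receptor subunit, followed at 248.8 ± 19.2 CPM per kb, and ITGB5, a partner of ITGAV for vitronectin, at 189 ± 11.6 CPM per kb. The ranges of these 3 subunits did not overlap with each other in 4OHT_siNT. Among alpha subunits the next were ITGA2 at 82.8 ± 5.07, ITGA3 at 67.7 ± 12.3 and ITGAV at 27.3 ± 1.95 CPM per kb. ITGA1, ITGB3, ITGA6 and ITGA11 had means of 15.2 to 18.8 CPM per kb and did not differ beyond their spread. Of the laminin chains, LAMB1 was at 124 ± 6.53, LAMC1 at 84.6 ± 12.0 and LAMB2 at 52.2 ± 6.37 CPM per kb, whereas the most abundant alpha chain, LAMA4, was at 17.3 ± 1.58 CPM per kb. LAMB1, LAMC1 and LAMA4 are the chains of laminin-411, a laminin of mesenchymal and vascular basement membranes. LAMA3 and LAMB3, chains of epithelial laminins, were at 0.0329 ± 0.0125 and 2.36 ± 0.354 CPM per kb.

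**Figure D1:**
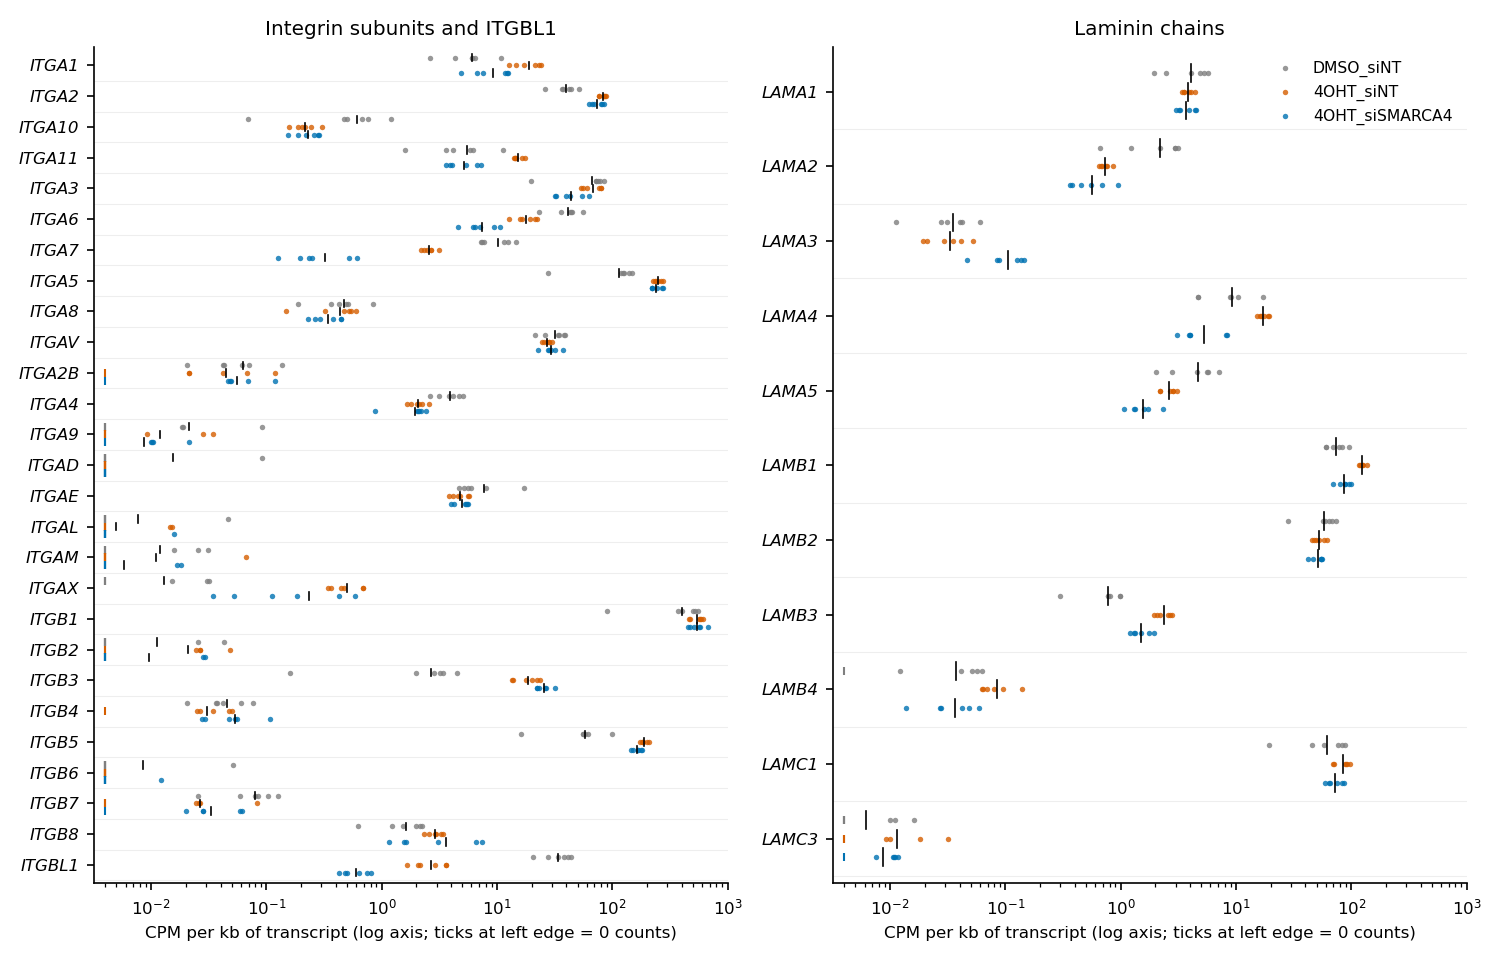
Level of each of 38 members in every library, in CPM per kilobase of canonical transcript on a log axis, with the mean of each group as a black bar and libraries without a count as ticks at the left edge. ITGB1, ITGA5 and ITGB5 lie highest in 4OHT_siNT, the leukocyte subunits lie lowest, and ITGA7 and ITGBL1 step down from DMSO_siNT to 4OHT_siNT to 4OHT_siSMARCA4.

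A test was possible for 27 of the 39 members, 17 integrin subunits, ITGBL1 and 9 laminin chains. The other 12 (ITGA2B, ITGA9, ITGAD, ITGAL, ITGAM, ITGB2, ITGB4, ITGB6, ITGB7, LAMA3, LAMB4 and LAMC3) had too few counts, which is a filter on counts and not a statement that they are absent. Their highest group mean was 1.12 ± 0.407 CPM, for LAMA3 in 4OHT_siSMARCA4, and no other reached 0.5 CPM in any group. ITGB4, the beta subunit of the epithelial laminin receptor in hemidesmosomes, was at 0.18 ± 0.107 CPM in 4OHT_siNT. ITGB2, the beta subunit that pairs with ITGAL, ITGAM, ITGAX and ITGAD in leukocytes, had at most 2 counts in any library. ITGAD had 3 counts in 1 DMSO_siNT library and none in the other libraries, and ITGB6, an epithelial partner of ITGAV, had no count in 4OHT_siNT.

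To describe how senescence changed these receptors and their laminin ligands, 4OHT_siNT was compared with DMSO_siNT. In senescent cells 3 of the 4 collagen-binding alpha subunits tested rose and 1 fell, 2 of the 3 laminin-binding alpha subunits fell, 2 of the 4 beta subunits rose, and the laminin chains were split. At an adjusted p under 0.05, 19 of the 27 members tested were called (11 higher and 8 lower), where 52.8% of all 13136 genes tested were called, 23.9% higher and 28.9% lower. The median log2 fold change was 0.42 over the members tested and −0.05 over all genes tested.

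All 4 collagen-binding alpha subunits were called. ITGA1, which prefers basement membrane collagen, ranged from 28.0 to 117 CPM in DMSO_siNT (median 65.4) and from 136 to 256 CPM in 4OHT_siNT (median 208). Every senescent library was above every DMSO_siNT library, and the log2 fold change came to 1.63 ± 0.29 (SE; edgeR adjusted p = 9.69e-05). ITGA11, the fibrillar collagen receptor of mesenchymal cells, ranged from 16.3 to 114 CPM in DMSO_siNT (median 50.9) and from 142 to 179 CPM in 4OHT_siNT (median 148). The groups did not overlap, and ITGA11 rose by 1.48 ± 0.30 on the log2 scale (edgeR adjusted p = 0.000434). ITGA2, a receptor for fibrillar collagen that also binds laminin, was the most abundant of the 4 and rose from 309 ± 66.1 to 649 ± 39.8 CPM (SD, n = 6; log2 fold change 1.07 ± 0.13, edgeR adjusted p = 1.51e-06). ITGA10, best known from cartilage, went the other way. It ranged from 0.359 to 6.21 CPM in DMSO_siNT (median 3.01) and from 0.801 to 1.55 CPM in 4OHT_siNT (median 1.08), with a log2 fold change of −1.51 ± 0.37 (edgeR adjusted p = 0.00209). The 2 ranges overlapped only through DMSO_siNT 4-2V, and without this library the log2 fold change was −1.72. The call was lost with siNT 4 alone (edgeR adjusted p = 0.126).

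Of the 3 laminin-binding alpha subunits, 2 fell. ITGA7, the laminin receptor of muscle, ranged from 29.8 to 60.6 CPM in DMSO_siNT (median 39.6) and from 9.03 to 13.0 CPM in 4OHT_siNT (median 10.6). All senescent libraries were below all growing ones, a log2 fold change of −1.97 ± 0.25 (SE; edgeR adjusted p = 1.55e-06). ITGA6, which binds laminins in many epithelia, also separated the groups, with 239 ± 62.6 CPM in DMSO_siNT and 105 ± 20.9 CPM in 4OHT_siNT (SD, n = 6; log2 fold change −1.19 ± 0.21, edgeR adjusted p = 8.14e-05). ITGA3 was not called: it had 327 ± 115 CPM in DMSO_siNT and 331 ± 60.1 CPM in 4OHT_siNT, a log2 fold change of 0.02 ± 0.25 (edgeR adjusted p = 0.963).

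Among the RGD-binding subunits, ITGA5 rose from 485 ± 186 to 1057 ± 81.7 CPM (SD, n = 6; log2 fold change 1.12 ± 0.25, edgeR adjusted p = 0.000864), with no overlap. ITGAV was at 225 ± 49.1 CPM in DMSO_siNT and 192 ± 13.7 CPM in 4OHT_siNT, and was not called over all libraries (log2 fold change −0.23 ± 0.14, edgeR adjusted p = 0.182), nor was ITGA8. Within VM sets ITGAV was called lower (−0.32, edgeR adjusted p = 0.0328). Of the beta partners of ITGAV 2 rose. ITGB3, known from platelets and osteoclasts, ranged from 0.956 to 26.6 CPM in DMSO_siNT (median 17.8) and from 79.5 to 140 CPM in 4OHT_siNT (median 112). The lowest senescent library was well above the highest growing one, and the log2 fold change was 2.78 ± 0.38 (edgeR adjusted p = 4.93e-06). The log2 fold change was 2.55 without DMSO_siNT 4-2V, which held the lowest value. ITGB5 ranged from 72.1 to 439 CPM in DMSO_siNT (median 253) and from 775 to 915 CPM in 4OHT_siNT (median 827), a log2 fold change of 1.71 ± 0.25 (edgeR adjusted p = 1.07e-05), again with no overlap. ITGB1 had the highest level of all members and was not called (log2 fold change 0.42 ± 0.27, edgeR adjusted p = 0.202). ITGB8, which with ITGAV binds latent TGF-beta, had non-overlapping ranges but was not called either (log2 fold change 0.85 ± 0.40, edgeR adjusted p = 0.0791). Within VM sets ITGB8 was called, at 1.37 ± 0.22 (edgeR adjusted p = 8.01e-05).

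Among the subunits of leukocyte integrins, ITGAX (CD11c, a marker of dendritic cells and macrophages) was almost without counts in growing cells. Its libraries held 0 to 2 counts in DMSO_siNT and 22 to 47 counts in 4OHT_siNT, where it ranged from 1.60 to 3.21 CPM (median 2.13). Against a floor of 3 counts per library, which is 0.246 CPM in DMSO_siNT, 4OHT_siNT was at least 9.46-fold higher, and the test called it (edgeR adjusted p = 1.04e-05; the fitted log2 fold change, 4.96 ± 0.72, depends on how near-empty libraries are treated). ITGB2, the beta subunit that ITGAX pairs with, stayed at 0.059 ± 0.052 CPM in 4OHT_siNT. CD3E, LYZ, SPI1 and TYROBP were at 3 counts or fewer in every DMSO_siNT and every 4OHT_siNT library, and PTPRC was so in DMSO_siNT only. Of the 10 leukocyte markers 2 could be tested and 1, LAPTM5, rose, where 23.9% of all genes rose. The summed level of the list, most of it CD68, was 46.4 to 60.4 CPM in DMSO_siNT and 49.96 to 72.7 CPM in 4OHT_siNT. The part of blood cells in the ITGAX result was not tested beyond these levels. ITGA4, a receptor for VCAM1 and fibronectin, fell from 26.6 ± 6.27 to 13.98 ± 2.22 CPM (SD, n = 6; log2 fold change −0.93 ± 0.20, edgeR adjusted p = 0.000625), and the call was lost with siNT 4 alone (edgeR adjusted p = 0.118). ITGAE, which binds E-cadherin in intraepithelial lymphocytes, was called lower (log2 fold change −0.69 ± 0.25, edgeR adjusted p = 0.0271), but DMSO_siNT 4-2V was at 65.6 CPM against 17.9 to 30.3 CPM in the other growing libraries, and without it the call was lost (log2 fold change −0.29, edgeR adjusted p = 0.0807), as it was without 4OHT_siNT 4-1VM or 4-2VM.

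ITGBL1 had the steepest fall. It ranged from 49.96 to 106 CPM in DMSO_siNT (median 87.5) and from 4.03 to 8.87 CPM in 4OHT_siNT (median 6.11). The mean in senescent cells was 7.79% of that in growing cells, with no overlap and a log2 fold change of −3.68 ± 0.22 (SE; edgeR adjusted p = 7.99e-11).

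The laminin alpha chains were split. LAMA2, the chain of muscle and nerve laminins, ranged from 6.45 to 30.6 CPM in DMSO_siNT (median 24.8) and from 6.23 to 8.24 CPM in 4OHT_siNT (median 6.98). The ranges overlapped through DMSO_siNT 4-2V alone, and the log2 fold change came to −1.59 ± 0.30 (SE; edgeR adjusted p = 0.000196). With siNT 4 alone the call was lost (edgeR adjusted p = 0.07). LAMA5, a widespread chain of mature basement membranes, fell from 52.9 ± 22.1 to 30.2 ± 4.29 CPM (SD, n = 6; log2 fold change −0.81 ± 0.24, edgeR adjusted p = 0.00885), and this call was lost with siNT 4 alone as the control (edgeR adjusted p = 0.852). LAMA4 rose from 66.3 ± 33.5 to 125 ± 11.4 CPM (log2 fold change 0.91 ± 0.29, edgeR adjusted p = 0.0121) with overlapping ranges, and was not called with siNT 2 alone (edgeR adjusted p = 0.192). LAMA1 was not called (log2 fold change −0.09 ± 0.21, edgeR adjusted p = 0.729).

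Of the laminin beta chains, LAMB3 ranged from 1.20 to 3.93 CPM in DMSO_siNT (median 3.17) and from 7.75 to 11.1 CPM in 4OHT_siNT (median 9.56). Senescent libraries were all higher, by 1.59 ± 0.20 on the log2 scale (edgeR adjusted p = 2.16e-06). LAMB1 rose from 419 ± 79.2 to 702 ± 36.9 CPM (SD, n = 6; log2 fold change 0.74 ± 0.12, edgeR adjusted p = 4.08e-05) and LAMB2 was not called over all libraries (log2 fold change −0.16 ± 0.17, edgeR adjusted p = 0.444) but was called lower within VM sets (−0.31, edgeR adjusted p = 0.032). LAMC1, the common gamma chain, was not called over all libraries (log2 fold change 0.45 ± 0.25, edgeR adjusted p = 0.13) but was called higher within VM sets (0.50, edgeR adjusted p = 0.0145) and with siNT 4 alone (0.99, edgeR adjusted p = 0.0347). LAMA3, an epithelial alpha chain, was at 0.376 ± 0.175 CPM in DMSO_siNT and 0.35 ± 0.133 CPM in 4OHT_siNT and was too low to test.

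**Figure D2:**
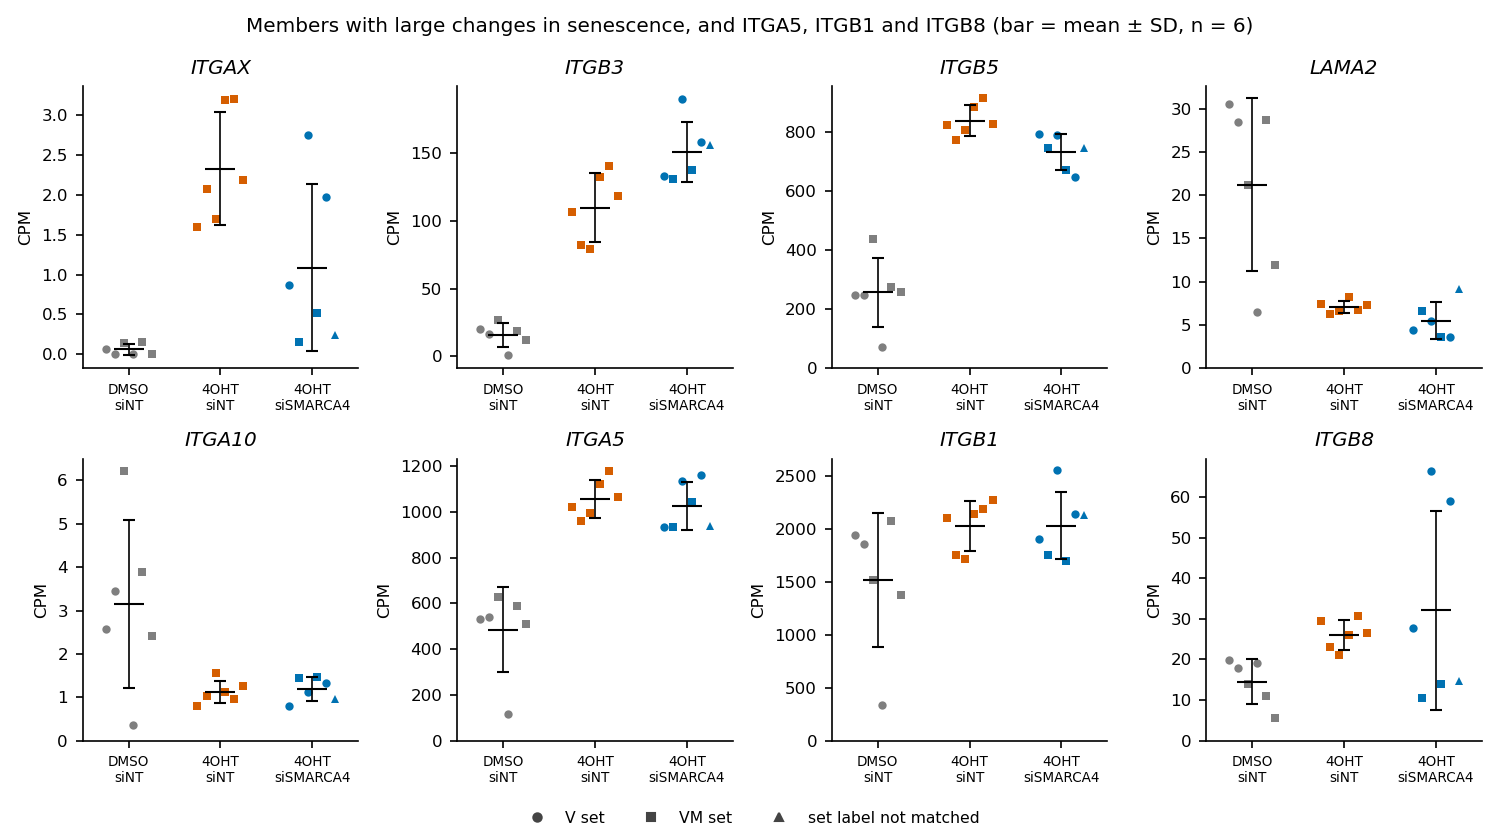
Level in CPM of ITGAX, ITGB3, ITGB5, LAMA2, ITGA10, ITGA5, ITGB1 and ITGB8 in each library (circles V sets, squares VM sets, triangle the unlabelled library), with mean ± SD over 6 libraries. ITGB3 and ITGB5 rise from DMSO_siNT to 4OHT_siNT without overlap, the lone low DMSO_siNT circle for ITGA5 and ITGB1 is library 4-2V, and the V libraries of 4OHT_siSMARCA4 lie above the VM libraries for ITGAX and ITGB8.

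Left out of the comparison, DMSO_siNT 4-2V changed few senescence calls: 20 members were called, where 58.3% of all genes were, with ITGAE lost and ITGAV (−0.31) and LAMB2 (−0.29) called lower. Within VM sets 22 members were called, where 53.5% of all genes were, with ITGB8, ITGAV, LAMC1 and LAMB2 gained. The senescence effect was also compared between siNT 2 and siNT 4 in a fit with 6 levels of treatment and siRNA. None of the 28 members tested there was called (edgeR, smallest adjusted p = 0.105), 6 had an unadjusted p under 0.05, and 0% of all genes were called. The lack of a call does not show that the effects were equal.

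To describe what knockdown of SMARCA4 changed in senescent cells, 4OHT_siSMARCA4 was compared with 4OHT_siNT. The members that moved were all lower: 8 of the 27 members tested were called, 0 higher and 8 lower, where 10.6% of all genes tested were called, 4.99% higher and 5.65% lower. By edgeR, ITGA3, ITGAX and LAMA5 were among the members with an unadjusted p under 0.05 but no call. DESeq2 called 10 members, 9 lower and 1, LAMA3, higher. It was run on all 22201 genes with a count and called 1953 of them, 908 higher and 1045 lower. The 8 were the collagen-binding ITGA1 and ITGA11, the laminin-binding ITGA6 and ITGA7, ITGBL1, and the laminin chains LAMA4, LAMB1 and LAMB3. The median log2 fold change was −0.35 over the members tested and 0.01 over all genes tested, and the fitted value was below 0 for each of the 9 laminin chains tested. None of the 4 beta subunits tested was called. The comparison shares the 4OHT_siNT libraries with the senescence comparison, so the values of a gene in both are not independent of each other.

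ITGA7 changed most. It ranged from 9.03 to 13.0 CPM in 4OHT_siNT (median 10.6) and from 0.519 to 2.52 CPM in 4OHT_siSMARCA4 (median 0.99). The mean left after knockdown was 12.5% of that in 4OHT_siNT, with no overlap and a log2 fold change of −2.95 ± 0.29 (SE; edgeR adjusted p = 5.09e-06). The V libraries of the knockdown group were at 1.02, 2.52 and 2.14 CPM, the VM libraries at 0.957 and 0.519 CPM and the unlabelled library at 0.808 CPM. ITGA6 ranged from 74.3 to 129 CPM in 4OHT_siNT (median 104) and from 26.4 to 61.7 CPM in 4OHT_siSMARCA4 (median 39.5). The groups did not overlap, and ITGA6 fell by 1.28 on the log2 scale (SE 0.21; edgeR adjusted p = 0.00068). The third laminin receptor subunit, ITGA3, was at 331 ± 60.1 CPM and 215 ± 60.4 CPM (SD, n = 6) and was not called (log2 fold change −0.62 ± 0.26, edgeR adjusted p = 0.133). It was called lower within VM sets (−0.88, edgeR adjusted p = 0.00295) and without DMSO_siNT 4-2V (−0.63, edgeR adjusted p = 0.00487).

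ITGBL1 ranged from 4.03 to 8.87 CPM in 4OHT_siNT (median 6.11) and from 1.04 to 1.98 CPM in 4OHT_siSMARCA4 (median 1.38). All knockdown libraries lay below all siNT libraries (log2 fold change −2.15 ± 0.25, edgeR adjusted p = 3.53e-05). Of the collagen receptors, ITGA11 ranged from 142 to 179 CPM in 4OHT_siNT (median 148) and from 36.5 to 74.5 CPM after knockdown (median 48.2). Its level after knockdown, 52.6 ± 15.9 CPM, lay within the range of growing cells, 16.3 to 114 CPM. ITGA11 fell by 1.56 on the log2 scale (SE 0.31; edgeR adjusted p = 0.00258). ITGA1 ranged from 136 to 256 CPM in 4OHT_siNT (median 208) and from 51.9 to 133 CPM after knockdown (median 103). The groups came close to each other but did not overlap (log2 fold change −1.03 ± 0.28, edgeR adjusted p = 0.0242). The call was lost without 4OHT_siNT 2-1VM or any of the 4OHT_siSMARCA4 libraries 2-3VM, 4-2VM and the unlabelled one (edgeR adjusted p up to 0.0592). ITGA2, the most abundant collagen receptor, was at 649 ± 39.8 and 583 ± 73.2 CPM and was not called (log2 fold change −0.15 ± 0.13, edgeR adjusted p = 0.508), and ITGA10 was at 1.12 ± 0.26 and 1.18 ± 0.272 CPM.

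Among the laminin chains, LAMA4 ranged from 111 to 139 CPM in 4OHT_siNT (median 122) and from 22.2 to 59.8 CPM in 4OHT_siSMARCA4 (median 28.96). The mean left was 30.3%, with no overlap (log2 fold change −1.72 ± 0.29, edgeR adjusted p = 0.00102). LAMB1 ranged from 664 to 769 CPM in 4OHT_siNT (median 697) and from 390 to 566 CPM after knockdown (median 499). This was a smaller but complete separation (log2 fold change −0.52 ± 0.12, edgeR adjusted p = 0.00922). LAMB3 ranged from 7.75 to 11.1 CPM in 4OHT_siNT (median 9.56) and from 4.85 to 7.74 CPM after knockdown (median 5.67). The highest knockdown library nearly reached the lowest siNT library (log2 fold change −0.65 ± 0.19, edgeR adjusted p = 0.0381), and the call was lost in 9 of the 18 fits that each left out 1 library, namely any 4OHT_siNT library but 2-2VM and any 4OHT_siSMARCA4 library but 4-2V and 4-2VM (edgeR adjusted p up to 0.0918). LAMA5 lay just outside the threshold, at 30.2 ± 4.29 and 17.8 ± 5.01 CPM (log2 fold change −0.76 ± 0.25, edgeR adjusted p = 0.0538), and LAMC1, LAMB2 and LAMA1 were not called, at −0.23, −0.03 and −0.04 on the log2 scale.

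Of the receptors for fibronectin and vitronectin, none was called. ITGA5 was at 1057 ± 81.7 CPM in 4OHT_siNT and 1025 ± 105 CPM in 4OHT_siSMARCA4, ITGAV at 192 ± 13.7 and 207 ± 34.5 CPM, ITGB1 at 2025 ± 233 and 2027 ± 316 CPM, and ITGB5 at 840 ± 51.7 and 733 ± 61.4 CPM (SD, n = 6). Their log2 fold changes lay between −0.20 and 0.11, with standard errors of 0.14 to 0.27. ITGB3 was at 110 ± 25.4 and 151 ± 22.4 CPM (log2 fold change 0.46 ± 0.35, edgeR adjusted p = 0.455), and was called higher without DMSO_siNT 4-2V (0.45 ± 0.16, edgeR adjusted p = 0.0462), a library of neither group that enters through the filter on counts and the shared estimate of the spread.

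**Figure D3:**
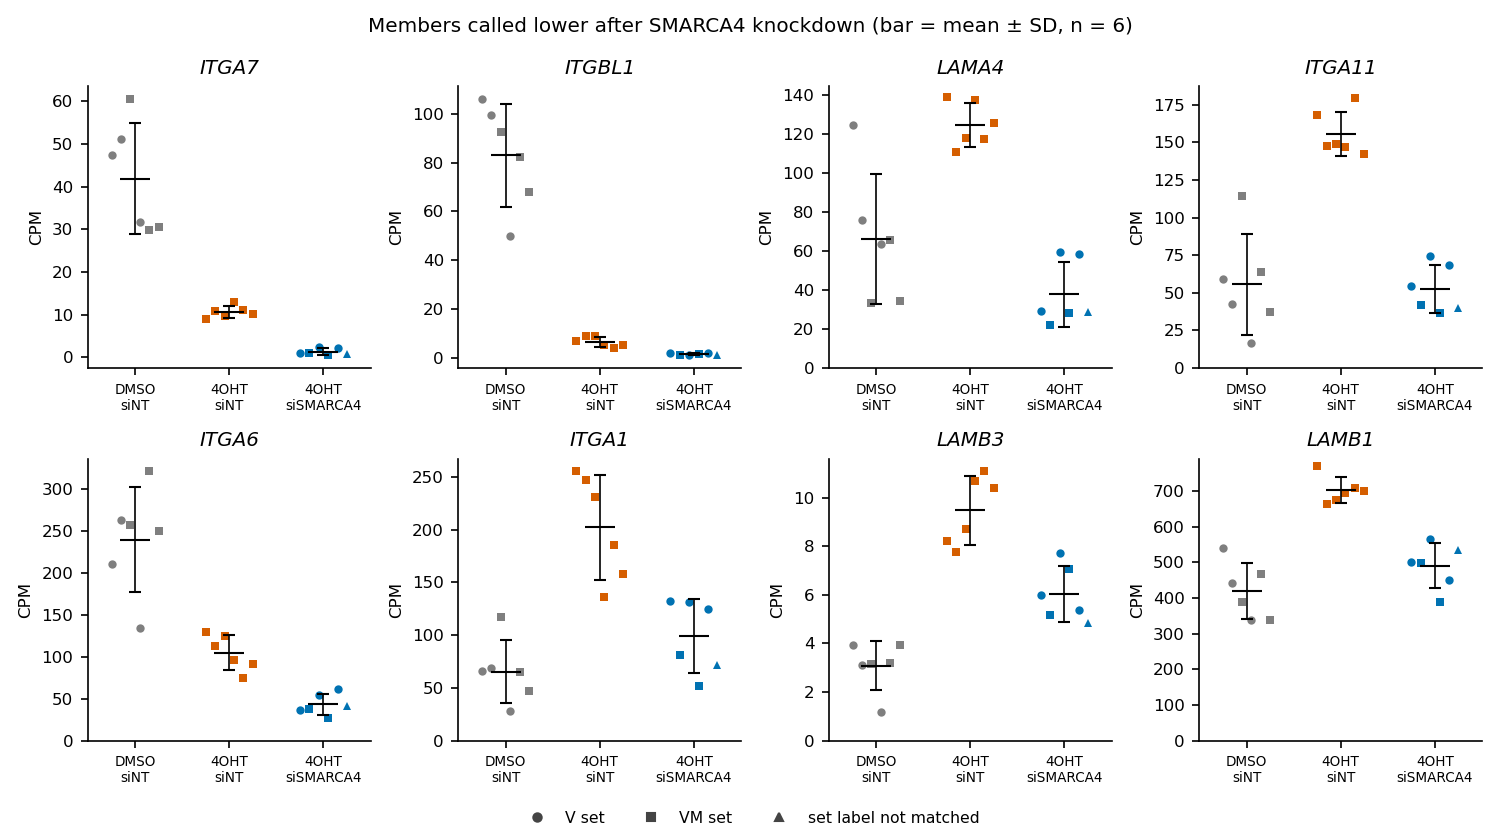
Level in CPM of the 8 members called lower after SMARCA4 knockdown, in each library of the 3 groups (circles V sets, squares VM sets, triangle the unlabelled library), with mean ± SD over 6 libraries. In each panel the 4OHT_siSMARCA4 libraries lie below the 4OHT_siNT libraries; ITGA7, ITGBL1 and ITGA6 were also lower in 4OHT_siNT than in DMSO_siNT, and the other 5 were higher there.

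**Figure D4:**
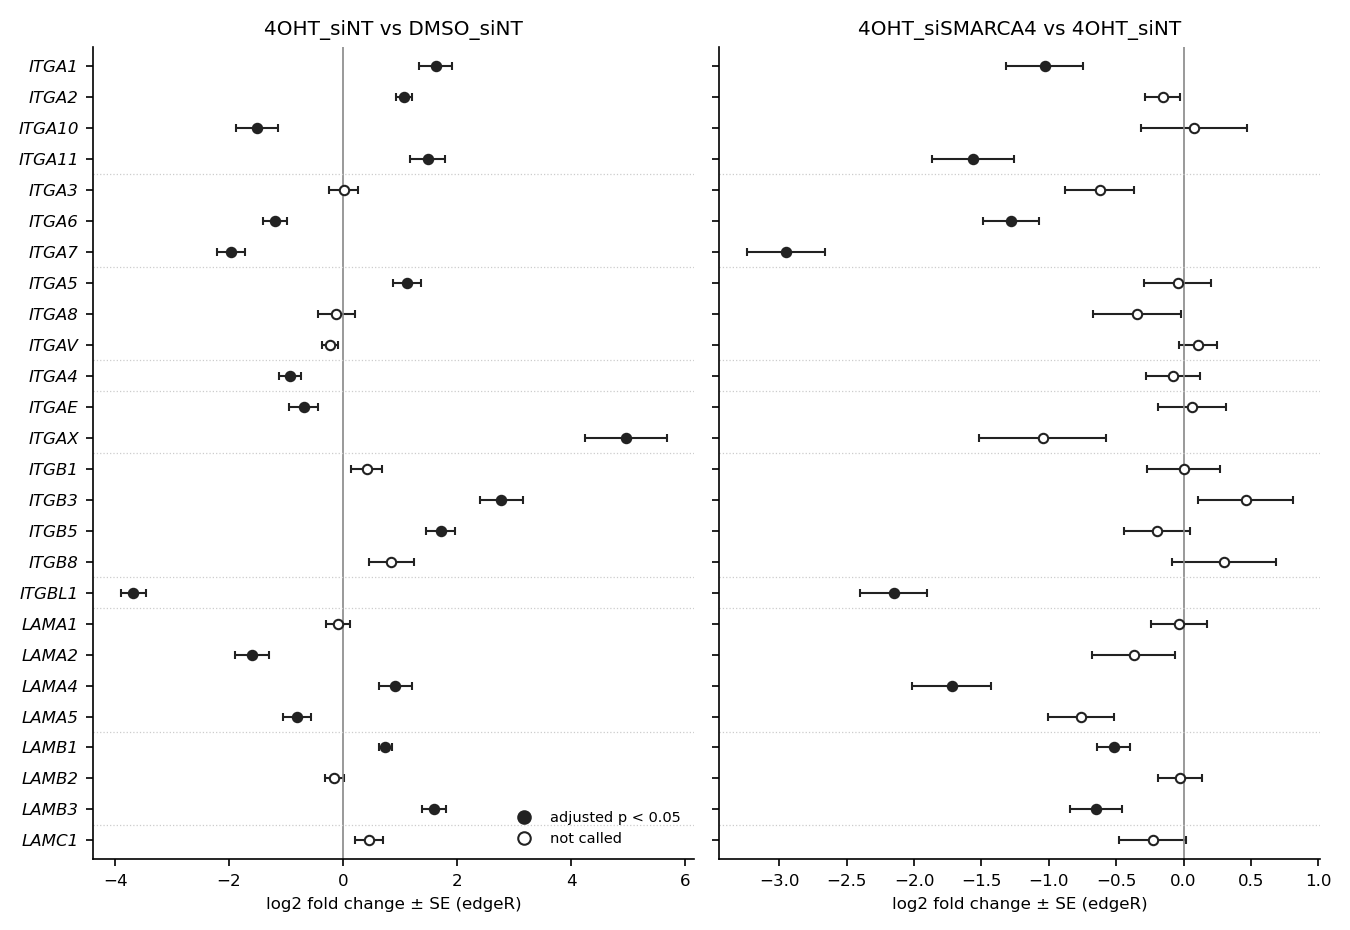
Log2 fold change ± SE (edgeR) of 26 members tested, ordered by role and separated by dotted lines, for 4OHT_siNT against DMSO_siNT (left) and 4OHT_siSMARCA4 against 4OHT_siNT (right); filled points have an adjusted p under 0.05. On the right the 8 filled points all lie below 0, and the 2 axes have different ranges.

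Set side by side, 3 of the 8 genes (ITGA7, ITGA6 and ITGBL1) were called lower in both comparisons, and 5 (ITGA1, ITGA11, LAMA4, LAMB1 and LAMB3) were called higher in senescence and lower after knockdown. The comparisons share the 4OHT_siNT libraries with opposite sign, which favours a rise and then a fall for any gene. How all genes called lower after knockdown split in senescence was not counted, so the split is not a result about the members. For LAMB1 the group means were 419 ± 79.2, 702 ± 36.9 and 490 ± 63.0 CPM in DMSO_siNT, 4OHT_siNT and 4OHT_siSMARCA4 (SD, n = 6), and for LAMA4 they were 66.3 ± 33.5, 125 ± 11.4 and 37.8 ± 16.7 CPM. ITGA2, ITGA5, ITGAX, ITGB3 and ITGB5 were called higher in senescence and were not called after knockdown. No test compared these genes with the 5 above.

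Because all 4OHT_siNT libraries were of VM sets, the knockdown comparison was repeated within VM sets, with 2 knockdown libraries. All 8 members were called there, and 13 in all, where 21.0% of all genes were called. The log2 fold changes were −3.84 for ITGA7, −2.34 for ITGBL1, −2.32 for LAMA4, −2.004 for ITGA11, −1.72 for ITGA6, −1.62 for ITGA1, −0.68 for LAMB1 and −0.65 for LAMB3. The other 5 were ITGA3, LAMA5, ITGAX and ITGB8, all lower, and LAMA3, higher. ITGAX was at 1.60 to 3.21 CPM in 4OHT_siNT, at 0.867, 2.75 and 1.98 CPM in the V libraries of the knockdown group, and at 0.159 and 0.519 CPM in its VM libraries. Within VM sets it was lower by 2.79 on the log2 scale (edgeR adjusted p = 0.0028), against −1.05 ± 0.47 over all libraries (edgeR adjusted p = 0.175). ITGB8 split the same way, with 27.9, 66.5 and 59.1 CPM in the V libraries, 10.4 and 14.002 CPM in the VM libraries and 14.6 CPM in the unlabelled library of the knockdown group, against 21.1 to 30.6 CPM in 4OHT_siNT. Its log2 fold change turned from 0.30 ± 0.39 over all libraries (edgeR adjusted p = 0.693) to −1.12 ± 0.25 within VM sets (edgeR adjusted p = 0.00597). What sets the V and VM libraries apart was not tested.

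LAMA3 had too few counts for the test over all 18 libraries. It had 3 to 8 counts per library in 4OHT_siNT and 12, 17, 16, 18, 6 and 18 counts in the knockdown libraries, the 6 counts being those of 4-3V. Its level was 0.35 ± 0.133 CPM in 4OHT_siNT and 1.12 ± 0.407 CPM in 4OHT_siSMARCA4 (SD, n = 6), with 1 knockdown library inside the 4OHT_siNT range. It was called higher in all 9 alternatives in which it could be tested and in all 13 fits without 1 library that tested it. Where the filter of the main fit was used, LAMA3 passed mainly through the knockdown libraries, where it was high. These tallies are therefore not separate support for the rise. Without that filter it was called higher by DESeq2 (log2 fold change 1.65, adjusted p = 0.00143). The fit of all genes with at least 1 count also called it (1.66, edgeR adjusted p = 0.00759). At under 20 counts per library this value rests on little depth. LAMB3 was at 6.03 ± 1.15 CPM after knockdown.

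The calls differed with the siRNA and the control. In the knockdown group siSMARCA4_4 was used in 4-2V, 4-3V and 4-2VM, and siSMARCA4_2 in 2-3V, 2-3VM and the unlabelled library. Set type and siRNA number are thus mixed, and their parts in these calls cannot be told apart. With siSMARCA4_2 alone 7 members were called, where 8.62% of all genes were, and with siSMARCA4_4 alone 2 members, ITGA7 and ITGBL1, where 1.86% of all genes were. The log2 fold changes of the 8 members were −3.52 to −0.47 with siSMARCA4_2 and −2.58 to −0.49 with siSMARCA4_4, all below 0. In the test of the difference between the siRNAs none of 28 members was called (edgeR, smallest adjusted p = 0.474), 4 had an unadjusted p under 0.05, and 0.00732% of all genes, 1 gene, were called. With siNT 2 alone as control 11 members were called, ITGB3 and LAMA3 among them as higher, where 15.7% of all genes were, and with siNT 4 alone 5, where 4.08% of all genes were. ITGA1 and ITGA6 had the lower levels of siNT 4 in 4OHT_siNT, with 136, 186 and 158 CPM against 256, 247 and 231 CPM with siNT 2 for ITGA1. Their calls were lost with siNT 4 alone (edgeR adjusted p = 0.207 for ITGA1 and 0.0519 for ITGA6), as were those of LAMB1 and LAMB3. Without DMSO_siNT 4-2V 13 members were called (11 lower and 2 higher), where 24.6% of all genes were.

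**Figure D5:**
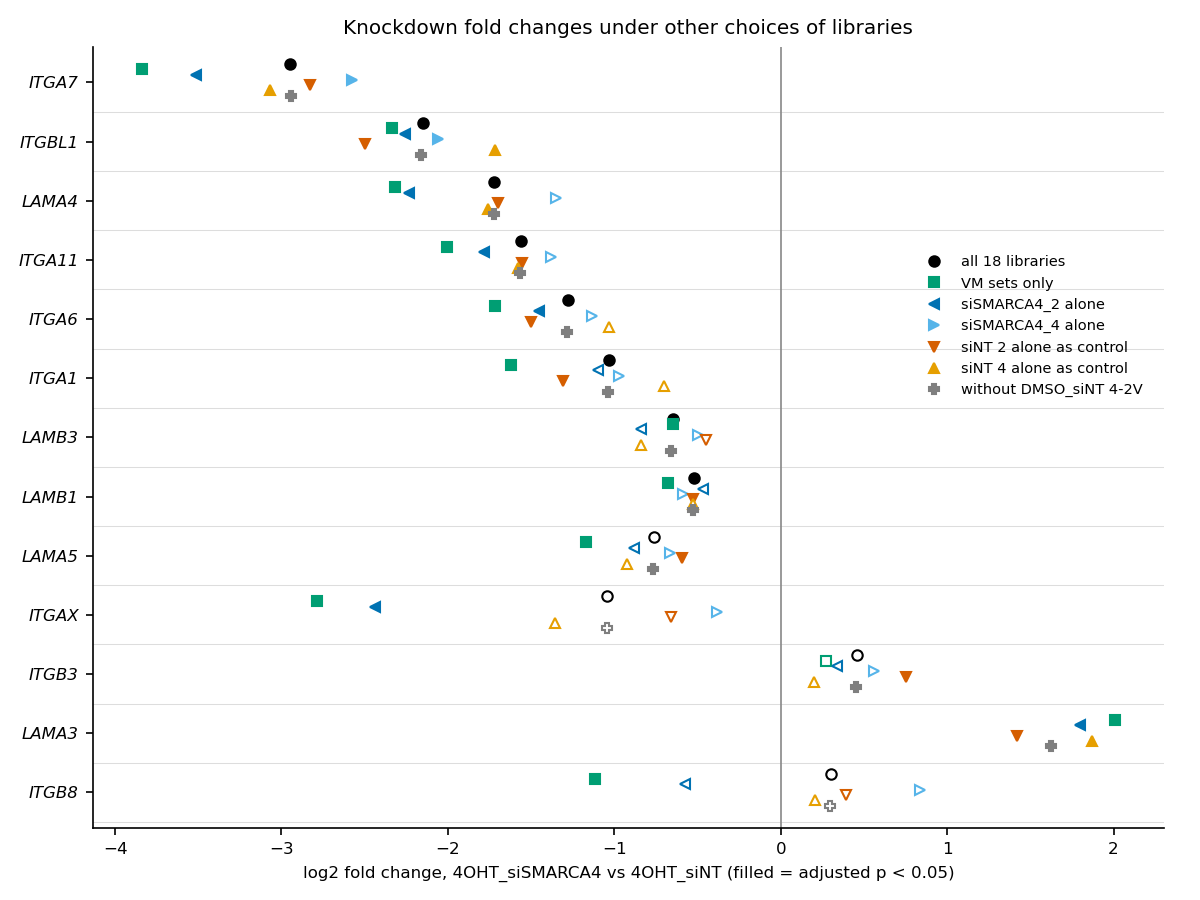
Log2 fold change of 4OHT_siSMARCA4 against 4OHT_siNT for the 8 called members and for LAMA5, ITGAX, ITGB3, LAMA3 and ITGB8 under 7 choices of libraries; filled markers have an adjusted p under 0.05. ITGA7 and ITGBL1 are filled under each choice shown, the 8 called members stay below 0, and ITGB8 lies on both sides of 0. LAMA3 has no point where it was not tested.

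The promoters shown first are those of genes that fell most after knockdown and have a promoter sequence. In senescence these genes did not move together: ITGBL1 and ITGA6 fell, and LAMA4 and ITGA11 rose. The promoters of ITGA5 and LAMA3 follow, which were chosen after the search because they hold the AP-1 matches. Sequences are from RefSeq on GRCh38.p14, 250 bases before to 50 after a transcript start, with 1 start per gene. This start need not be the first of the gene. RefSeq windows matched 27 of the 39 members, and ITGA7 has no entry. Each reads 5′ to 3′ on the gene's strand, and capitals mark matches on either strand to the AP-1 letters TGACTCA, the TEAD letters GGAATG, the GC box letters GGGCGG or the TATA box letters TATAAA. No match overlapped a match of another of these motifs in the sequences shown. ITGBL1 is at chr13:101452425-101452724 on the plus strand, LAMA4 at chr6:112254518-112254817 on the minus strand, ITGA11 at chr15:68432114-68432413 on the minus strand and ITGA6 at chr2:172427086-172427385 on the plus strand. ITGA5 is at chr12:54419217-54419516 on the minus strand and LAMA3 at chr18:23872770-23873069 on the plus strand. The LAMA3 window lies inside the gene, which spans chr18:23689453-23956222, and not at its first base. Which start of LAMA3 the counted reads came from was not tested.
ITGBL1: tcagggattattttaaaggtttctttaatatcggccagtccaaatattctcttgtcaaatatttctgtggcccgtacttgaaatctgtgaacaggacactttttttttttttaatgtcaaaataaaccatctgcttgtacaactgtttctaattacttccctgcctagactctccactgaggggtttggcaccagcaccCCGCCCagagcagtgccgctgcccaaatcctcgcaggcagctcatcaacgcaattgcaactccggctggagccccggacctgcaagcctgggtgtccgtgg
LAMA4: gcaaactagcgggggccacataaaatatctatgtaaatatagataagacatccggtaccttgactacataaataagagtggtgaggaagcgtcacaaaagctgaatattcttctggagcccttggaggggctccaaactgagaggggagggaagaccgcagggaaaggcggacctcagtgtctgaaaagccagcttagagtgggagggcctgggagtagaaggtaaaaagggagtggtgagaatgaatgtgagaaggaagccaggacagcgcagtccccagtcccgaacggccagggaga
ITGA11: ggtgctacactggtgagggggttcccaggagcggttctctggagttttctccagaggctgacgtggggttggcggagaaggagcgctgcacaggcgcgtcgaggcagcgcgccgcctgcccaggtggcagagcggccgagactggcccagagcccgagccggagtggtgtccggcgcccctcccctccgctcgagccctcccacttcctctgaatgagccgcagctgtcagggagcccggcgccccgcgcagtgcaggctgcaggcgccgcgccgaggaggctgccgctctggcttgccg
ITGA6: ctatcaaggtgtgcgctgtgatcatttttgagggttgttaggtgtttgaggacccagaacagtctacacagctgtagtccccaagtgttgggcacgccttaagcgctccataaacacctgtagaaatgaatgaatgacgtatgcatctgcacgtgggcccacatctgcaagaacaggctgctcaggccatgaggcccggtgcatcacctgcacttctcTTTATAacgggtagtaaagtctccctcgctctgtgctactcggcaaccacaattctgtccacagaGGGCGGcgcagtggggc
ITGA5: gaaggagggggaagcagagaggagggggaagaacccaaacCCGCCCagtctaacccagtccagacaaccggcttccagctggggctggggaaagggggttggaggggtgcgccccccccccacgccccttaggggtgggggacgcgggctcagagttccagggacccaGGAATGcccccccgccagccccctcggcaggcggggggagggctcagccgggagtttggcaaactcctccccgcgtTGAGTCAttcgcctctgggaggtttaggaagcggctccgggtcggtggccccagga
LAMA3: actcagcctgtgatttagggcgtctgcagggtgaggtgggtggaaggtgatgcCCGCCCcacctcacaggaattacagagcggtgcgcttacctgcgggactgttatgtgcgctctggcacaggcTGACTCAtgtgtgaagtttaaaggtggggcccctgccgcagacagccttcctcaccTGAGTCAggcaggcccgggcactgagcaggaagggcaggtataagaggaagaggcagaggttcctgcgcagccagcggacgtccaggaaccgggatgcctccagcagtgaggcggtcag
LAMA4 and ITGA11 hold none of the 4 motifs, ITGBL1 holds 1 GC box, and ITGA6 holds a GC box and a TATA box. AP-1 letters occurred in 2 of the 27 member promoters, ITGA5 with 1 match and LAMA3 with 2, and in 4.92% of 27305 promoters. TEAD letters occurred in 4 (ITGA10, ITGA5, ITGB1 and LAMA2), against 14.05% of all promoters, GC boxes in 15, against 44.6%, and the TATA box in 1, ITGA6, against 12.0%. A match is a description of the letters in this window and not a bound site.

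Several members are neighbours in the genome. ITGA1 (chr5:52787916-52959209, plus strand) and ITGA2 (chr5:52989340-53094779, plus strand) lie 30.1 kb apart in GENCODE version 44, and both rose in senescence, but only ITGA1 was called after knockdown; the difference between these genes was not tested. ITGAX lies between ITGAM and ITGAD on chromosome 16, with gaps of 22.2 and 10.3 kb, and these neighbours had at most 4 counts in any library. LAMB1 and LAMB4 lie 20.3 kb apart on chromosome 7, and LAMB4 was at 0.497 ± 0.17 CPM or lower on average in each group. Antisense genes of members, among them ITGA6-AS1 and LAMA4-AS1, were at most 1.09 CPM in any library. The counting program and its strand setting are not given in the sources used here, so reads of overlapping antisense genes could not be told apart from those of the members.

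The partners of these receptors and ligands were examined as lists. Of 32 adaptor and focal adhesion genes tested, which join integrin tails to actin and signalling, 6 rose and 9 fell in senescence, where 23.9% of all genes rose and 28.9% fell, and 1 rose and 5 fell after knockdown, where 4.99% of all genes rose and 5.65% fell. LIMS2, a scaffold of the ILK complex, fell by 3.42 on the log2 scale in senescence (edgeR adjusted p = 1.79e-10). FERMT3, the kindlin of blood cells, rose by 1.62 (edgeR adjusted p = 4.87e-06), from a low level of 1.07 ± 0.249 to 3.33 ± 0.607 CPM (SD). After knockdown TNS1 and TNS2, tensins that bind beta subunit tails, fell by 1.71 and 1.33 (edgeR adjusted p = 0.00765 and 0.00172). The median log2 fold change of the list was 0.01 in senescence and −0.26 after knockdown, beside −0.05 and 0.01 over all genes.

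Of 15 basement membrane partners of laminin tested, 9 rose and 4 fell in senescence (23.9% and 28.9% of all genes), and 1 rose and 3 fell after knockdown (4.99% and 5.65% of all genes), with medians of 0.77 and −0.39. NTN1, a laminin-related guidance cue, rose in both, by 3.35 and 2.20 (edgeR adjusted p = 2.65e-07 and 5.39e-05). Its level was 0.324 ± 0.195 CPM in DMSO_siNT, near the floor, 3.44 ± 0.673 CPM in 4OHT_siNT and 15.9 ± 5.87 CPM in 4OHT_siSMARCA4 (SD). The size of its rise in senescence therefore rests on few counts in growing cells. The type IV collagen chains COL4A5 and COL4A6 fell after knockdown by 0.61 and 1.61 (edgeR adjusted p = 0.0152 and 0.00264). Of 7 other laminin receptors tested, 0 rose and 5 fell in senescence (23.9% and 28.9% of all genes) and 0 rose and 3 fell after knockdown (4.99% and 5.65% of all genes), with medians of −0.92 and −0.05. BCAM, a receptor for the LAMA5 chain, fell in both, by 1.54 and 0.99 (edgeR adjusted p = 9.78e-08 and 0.000604). Of 3 hemidesmosome partners tested, 0 rose and 1 fell in senescence (23.9% and 28.9% of all genes). The 1 that fell was CD151, by 0.35 (edgeR adjusted p = 0.00338). None was called after knockdown (4.99% and 5.65% of all genes), and the medians were −0.15 and −0.26.

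Of 24 other integrin ligands tested, 9 rose and 7 fell in senescence (23.9% and 28.9% of all genes), and 0 rose and 8 fell after knockdown (4.99% and 5.65% of all genes), with medians of 0.07 and −0.41. ICAM1, the ligand of leukocyte integrins, rose in senescence by 4.76 (edgeR adjusted p = 3.34e-09). VCAM1, the ligand of ITGA4, fell by 3.33 (edgeR adjusted p = 0.000103), from 14.1 ± 13.4 CPM in DMSO_siNT to 1.38 ± 0.302 CPM in 4OHT_siNT (SD). The spread of VCAM1 in growing cells was nearly as large as its mean, so the size of this fall is uncertain. After knockdown the fibrillar collagen chains COL1A2 and COL1A1, ligands of the collagen-binding subunits, fell by 1.46 and 1.42 (edgeR adjusted p = 0.000618 and 0.00255). These collagens also stand in the list of 10 fibroblast markers. Of these markers 1 rose and 5 fell in senescence (23.9% and 28.9% of all genes). After knockdown 0 rose and 6 fell (4.99% and 5.65% of all genes). The summed level of that list ranged from 15212 to 20123 CPM in 4OHT_siNT and from 8827 to 12872 CPM in 4OHT_siSMARCA4, so it moved with the 8 members. Its part in their fall was not tested. Of 4 epithelial markers tested, 0 rose and 3 fell in senescence (23.9% and 28.9% of all genes). After knockdown 0 of them rose and 1 fell (4.99% and 5.65% of all genes). Of 5 endothelial markers tested, 4 rose and 0 fell in senescence (23.9% and 28.9% of all genes). None of the endothelial markers was called after knockdown (4.99% and 5.65% of all genes). The endothelial sum was 5.61 to 12.3 CPM in DMSO_siNT and 14.5 to 19.996 CPM in 4OHT_siNT.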

How the data were processed

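RNA was sequenced from IMR90 ER:RAS cells as poly(A)-selected single-end reads of 72 bp from a directional kit. The deposited values were raw gene counts, which the authors made after alignment to hg38 with STAR 2.7.8a; the submitters' processing notes also list DESeq2 1.36.0. The annotation, counting program and strand setting are not given in the sources used here. Counts of the 2 lanes of a library were summed, giving 18 libraries. Of 29 labelled samples 17 matched a column, the others are not analysed here, and 1 further column showed its group but matched no title.

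Genes passed edgeR's filterByExpr at a minimum count of 10 (13136 genes with 99.9% of counts). All 18 libraries entered 1 edgeR 4.0.16 quasi-likelihood fit (R 4.3.3) with TMM scaling, group as the only term and Benjamini-Hochberg adjustment over all genes tested, and a call is an adjusted p under 0.05. Standard errors were the fold change over the root of F. CPM is on the TMM scale, and CPM per kb divides by the canonical transcript of GENCODE version 44. The common biological coefficient of variation was 23.3%. Ranges run from the lowest to the highest library of a group and hold all spread between them, and floors cover counting error only. A count of 3 was taken as the floor. The scripts were tested on simulated counts with known changes. No libraries of a group agreed within sampling noise.

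Members and lists were chosen with earlier results of these data known. Full statistics were set for the 10 members with the largest change among those called in senescence and for members called after knockdown, and were added for their partner subunits or chains and for calls near the threshold. At most 4 called genes were named per list and contrast. Alternatives were RLE scaling, DESeq2 1.42.0, other filters on low counts, subsets by set, siRNA and group, stricter thresholds, a block on the set label and leaving out each library. Counts of members include 1 tested member whose own values are not reported here.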

Additional observations from a re-analysis of the deposited data

Results flagged for a closer look

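In 81 sets of 6 libraries (27 members in 3 groups), 9 held a library whose gap to its nearest neighbour was a large share of the range of the set on the log2 scale (counts plus 0.5, scaled to library size), where chance gives about 4.05. In 8 of the 9 the low library was DMSO_siNT 4-2V. The share of the log2 range taken by its gap was 0.889 for ITGA3 (96.5 CPM against 350 to 411 CPM in the other DMSO_siNT libraries), 0.877 for ITGA5 (117 against 510 to 626 CPM) and 0.776 for ITGB1 (333 against 1375 to 2070 CPM). It was 0.751 for ITGB3 (0.956 against 11.8 to 26.6 CPM), 0.68 for ITGB5 (72.1 against 247 to 439 CPM) and 0.652 for ITGA10 (0.359 against 2.40 to 6.21 CPM). It was 0.805 for LAMB3 (1.20 against 3.13 to 3.93 CPM) and 0.739 for LAMB2 (160 against 326 to 420 CPM). The remaining value was ITGA4 in 4OHT_siSMARCA4 4-2VM, with a share of 0.809 (5.96 against 13.6 to 16.6 CPM).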

How the results depend on the processing

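In senescence 19 members were called, against 13 (2-fold) to 22 (VM sets only) under the alternatives and 18 to 20 when each library was left out. After knockdown 8 members were called, against 13 within VM sets, 14 in VM sets with the unlabelled library (chosen after seeing the data), 5 with siNT 4 alone as control and 2 with siSMARCA4_4 alone, and leaving out each library gave 6 to 13, the highest without DMSO_siNT 4-2V. The set label as a replicate block left 3 called after knockdown (ITGA7, ITGBL1 and LAMA4) and 16 in senescence. Whether set labels pair the libraries is not settled by these values. Over 15 same-set pairs across groups the deviations from group means correlated at −0.34 to 0.39, 7 of them over 0.1. Of 81 pairs of different sets, at −0.34 to 0.32, 28 were over 0.1. Among 12 libraries 2 correlated best with their own set, and the DMSO_siNT means include the library 4-2V. ITGB8 after knockdown turned from 0.30 to −1.12 within VM sets, −1.02 in VM sets with the unlabelled library and −1.02 with the V libraries of the knockdown group left out. With siNT 4 alone as control, ITGA10, ITGA4, LAMA2 and LAMA5 lost their senescence calls. Both siRNA comparisons also called 0 members under RLE scaling (7 and 4 at an unadjusted p under 0.05). Over all single-member fold changes, 794 kept their side of the threshold, 48 of them not called under either setting and with a changed sign, 35 became called, 51 lost the call and 3 reversed. The cause was not tested.

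Over all genes, 1397 were called after knockdown and 236 with the block, 254 with siSMARCA4_4 alone, 543 with siNT 4 alone, 461 over 2-fold, 595 at an adjusted p under 0.01, 2109 with siNT 2 alone, 2858 within VM sets, 4064 with the unlabelled library added, 3405 with only the 2 groups in the fit, 3269 without DMSO_siNT 4-2V and 923 without the unlabelled library. In senescence 6935 were called, 4356 with the block and 2822 over 2-fold. Genes with few counts per library, such as LAMA3 and ITGAX, are limited by depth.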
